A study of Homo sapiens with 15 samples.

Results

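The genes described here are 10 non-coding genes that host small nucleolar RNAs (snoRNAs): GAS5, ZFAS1, SNHG1, SNHG5, SNHG6, SNHG7, SNHG8, SNHG12, SNHG15 and SNHG16. They were chosen by gene name, as 10 of the 58735 genes of the deposited table, and all 10 passed the filter on low counts that kept 16146 genes. Their RNA was measured by RNA-seq in UKE-1, an established human myeloid leukaemia line with an activating JAK2 mutation. The 5 groups of 3 libraries were cells given TNF-α, MCL and ruxolitinib, cells given TNF-α and MCL, cells given TNF-α and ruxolitinib, cells given TNF-α, and untreated cells. TNF-α is an inflammatory cytokine that the design used to imitate an inflamed surrounding, and it was given before the drugs. MCL is taken as micheliolide, a sesquiterpene lactone that the series title names. Ruxolitinib blocks JAK1 and JAK2, kinases of cytokine receptors. RNA was taken 3 h after treatment, and the sources used here give neither the doses nor the length of the TNF-α stimulation. All results come from 1 cell line.

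A snoRNA host gene is transcribed into a longer RNA whose introns release snoRNAs after splicing. The snoRNAs then join core proteins and guide chemical changes on ribosomal RNA, 2′-O-methylation for the box C/D class and pseudouridylation for the box H/ACA class. Many hosts begin with a run of pyrimidines, the 5′ terminal oligopyrimidine (TOP) start that they share with the genes of ribosomal proteins. Their spliced RNAs hold only short reading frames, and several are known to be bound by ribosomes and removed by nonsense-mediated decay, so that the level of a host RNA can change through its synthesis or its decay. By the snoRNA genes that the table lists inside them, SNHG7, SNHG8 and SNHG15 host the H/ACA class, SNHG12 hosts both classes, and ZFAS1, SNHG1, SNHG5, SNHG6 and SNHG16 host the C/D class. GAS5, a gene first found for its RNA in growth-arrested cells, is a known host of C/D snoRNAs, and the table lists no snoRNA gene inside it.

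The first bases of a host bear on the TOP question, so the 60 bases around the RefSeq start (GRCh38.p14) are shown for 5 hosts. These are the hosts with a tract that opens on the start base or the base before it, and SNHG1 and GAS5, which are among the other hosts called in the tests. Of the 10 hosts, 8 had an entry among the RefSeq promoters. SNHG15 and SNHG6 had none, so their starts were not examined. In each line the RefSeq start is base 31, and capitals mark a C followed by at least 4 bases that are C or T, sought on the gene's own strand with its first base within 20 bases of the start. The windows are chr20:49278612-49278671 on the plus strand for ZFAS1, and on the minus strand chr6:85678704-85678763 for SNHG5, chr1:28581844-28581903 for SNHG12, chr11:62855856-62855915 for SNHG1 and chr1:173869016-173869075 for GAS5.
ZFAS1: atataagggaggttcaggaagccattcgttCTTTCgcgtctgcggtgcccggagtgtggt
SNHG5: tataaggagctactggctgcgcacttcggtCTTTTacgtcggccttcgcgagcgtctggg
SNHG12: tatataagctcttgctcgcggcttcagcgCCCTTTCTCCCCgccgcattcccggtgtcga
SNHG1: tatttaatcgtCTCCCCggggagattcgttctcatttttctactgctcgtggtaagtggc
GAS5: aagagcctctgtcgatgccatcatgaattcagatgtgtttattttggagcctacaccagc
ZFAS1, SNHG5 and SNHG12 had a C on the start base followed by at least 4 such bases, 3 of 8 hosts, against 4.07% of 35116 promoters and 58.2% of the promoters of 79 ribosomal protein genes. Within 20 bases of the start 7 of 8 hosts had one, but so did 51.0% of all promoters. The tracts of SNHG7 and SNHG8, hosts also called in the tests, opened at -14 and -5 from the start and are not shown. The RefSeq start lay 1259 bases from the start of the gene in the table for SNHG12, 464 bases for ZFAS1, 163 bases for GAS5, 29 bases for SNHG1 and 15 bases for SNHG5, so these windows show 1 annotated start of genes that have several. The GENCODE 29 annotation gives SNHG12 17 transcripts and GAS5 29. A tract is a description of letters, not of use as a TOP start.

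Library totals ranged from 15476399 to 18035604 counts, and the 10 hosts together held 0.0653% to 0.0765% of them. Single hosts had 170 to 3390 counts in a library. Levels are given as CPM, counts in each 1000000 of a library's TMM-scaled total. Of 9 markers of blood cells and progenitors, 8 were at 8.07 CPM or more in every library, CD34 at 958 to 1295 CPM, and MPO was at 0.185 to 1.33 CPM. Of markers of other cells, MS4A1 and EPCAM had 0 counts in all 15 libraries and COL1A1 and COL1A2 at most 4. The T cell marker CD3D reached 14.7 CPM, the B cell marker CD79A 27.3 CPM and the epithelial marker KRT8 56.2 CPM. The share of counts from mitochondrial genes was 4.30% ± 0.143 with both drugs, 4.55% ± 0.217 with MCL, 5.49% ± 0.0476 with ruxolitinib, 5.12% ± 0.151 with TNF-α and 5.23% ± 0.115 in untreated cells (SD, n = 3 each), and its part in the results below was not tested. No label states whether libraries of 1 group are separate cultures, so each p-value measures only how these libraries vary, which may be technical variation.

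Per kilobase of exon, SNHG6 had the highest level of the 10 hosts in every group, 99.3 ± 4.64 CPM per kb with both drugs and 101 ± 8.36 CPM per kb in untreated cells (SD, n = 3 each). GAS5 and SNHG1 followed in every group, and none of these top 3 overlapped the next in its libraries. GAS5 stood at 50.6 CPM per kb with both drugs and 47.5 CPM per kb in untreated cells, and SNHG1 at 25.1 and 34.8 CPM per kb in the same groups. The other 7 hosts lay between 5.17 and 16.3 CPM per kb with both drugs and between 6.89 and 18.2 CPM per kb in untreated cells. In untreated cells SNHG7 overlapped SNHG5, SNHG5 overlapped SNHG8, SNHG8 overlapped SNHG15 and SNHG12 overlapped ZFAS1 in this order of levels per kb. SNHG15 was the 10th and lowest host with both drugs, at 5.17 CPM per kb, and the 7th in untreated cells, at 15.2 CPM per kb.

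**Figure D1:**
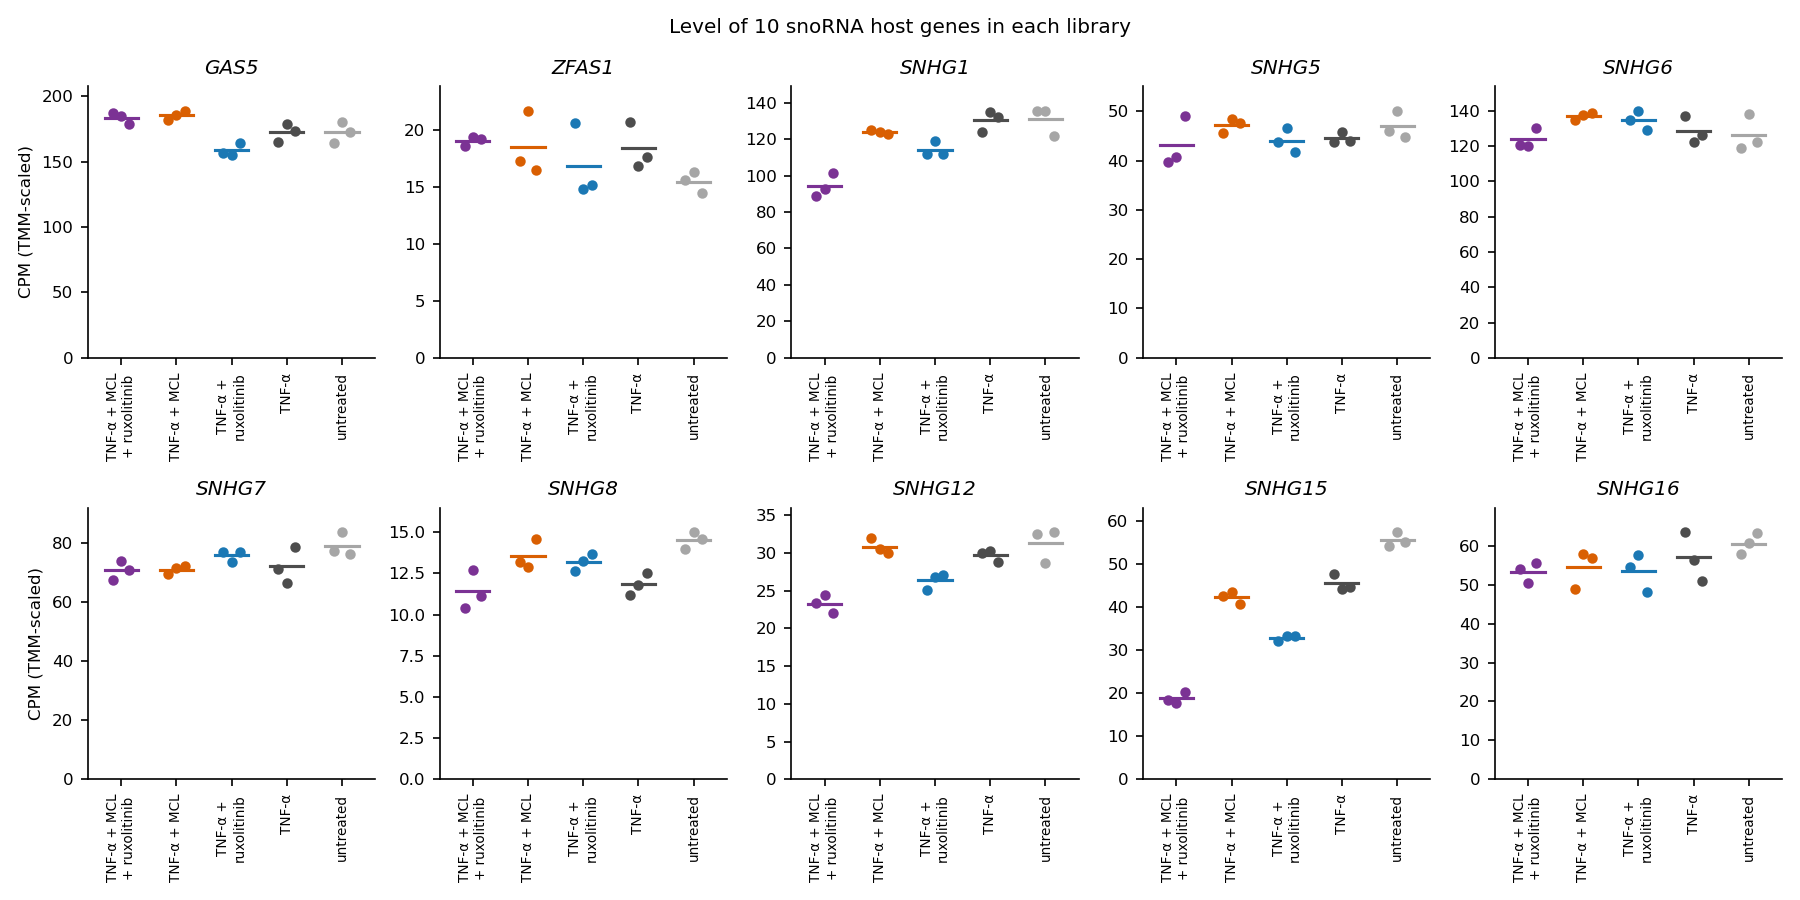
Level of each of the 10 host genes in each library, in TMM-scaled CPM (linear axes from 0), with 1 point per library and a bar at the group mean of 3 libraries. SNHG15 runs from 18.8 CPM on average with both drugs to 55.6 CPM in untreated cells without overlap between these groups, while SNHG16 and ZFAS1 overlap in most groups.

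With both drugs the mean level of SNHG15 was 41.3% of that with TNF-α, that of SNHG1 72.3% and that of SNHG12 78.4%. The other hosts lay between 93.6% (SNHG16) and 106% (GAS5). With both drugs SNHG15, SNHG1 and SNHG12 fell and GAS5 rose by a small amount relative to TNF-α alone, and 6 hosts did not pass. These 4 calls of 10 (40%) compare with 54.8% of all tested genes called in that comparison, 25.5% higher and 29.3% lower, so the hosts were called no more often than genes at large. The median log2 fold change was -0.05 over the 10 hosts and -0.03 over all tested genes. Of all calls in this comparison 46.5% were higher, or 56.6% when libraries were scaled by their totals in place of TMM.

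With ruxolitinib, SNHG15, SNHG1 and GAS5 fell relative to TNF-α and none rose. These 3 of 10 hosts (30%) compare with 15.7% of all genes called, 5.15% higher and 10.6% lower. The GAS5 call was lost in 9 of 12 alternatives, and leaving out single libraries gave 2 to 3 hosts called. The median log2 fold change of the hosts was -0.11 and that of all genes -0.01. With MCL, GAS5 alone was called, higher, 1 of 10 hosts (10%) against 26.0% of all genes called and 10.9% called higher. TNF-α against untreated cells gave 3 lower calls, SNHG15, SNHG8 and SNHG7 (30%), against 26.6% of all genes called and 12.5% called lower. The share of all calls that were higher was 53.7% with library totals and 41.8% with TMM for MCL, 45.4% and 32.8% for ruxolitinib, and 42.4% and 53.0% for TNF-α.

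Adding ruxolitinib to MCL (both drugs against MCL) lowered SNHG15, SNHG12, SNHG1 and SNHG6, 4 of 10 hosts (40%) against 41.6% of all genes called, 19.6% higher and 22.0% lower. Adding MCL to ruxolitinib (both drugs against ruxolitinib) lowered SNHG15, SNHG1, SNHG12 and SNHG6 and raised GAS5, 5 of 10 (50%) against 51.7% called, 24.8% higher and 26.8% lower. MCL against ruxolitinib gave 4 higher calls, GAS5, SNHG1, SNHG12 and SNHG15 (40%), against 27.5% called and 14.3% called higher. Without MCL replicate 1 it gave 2. Both drugs against ruxolitinib gave 3 calls without ruxolitinib replicate 2 or replicate 1 of both drugs, with library totals and with DESeq2. The comparisons share groups, so these counts are not independent. In the 8 contrasts tested, which include the non-additive effect given further on, 7 hosts were called at least once and ZFAS1, SNHG5 and SNHG16 in none.

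**Figure D2:**
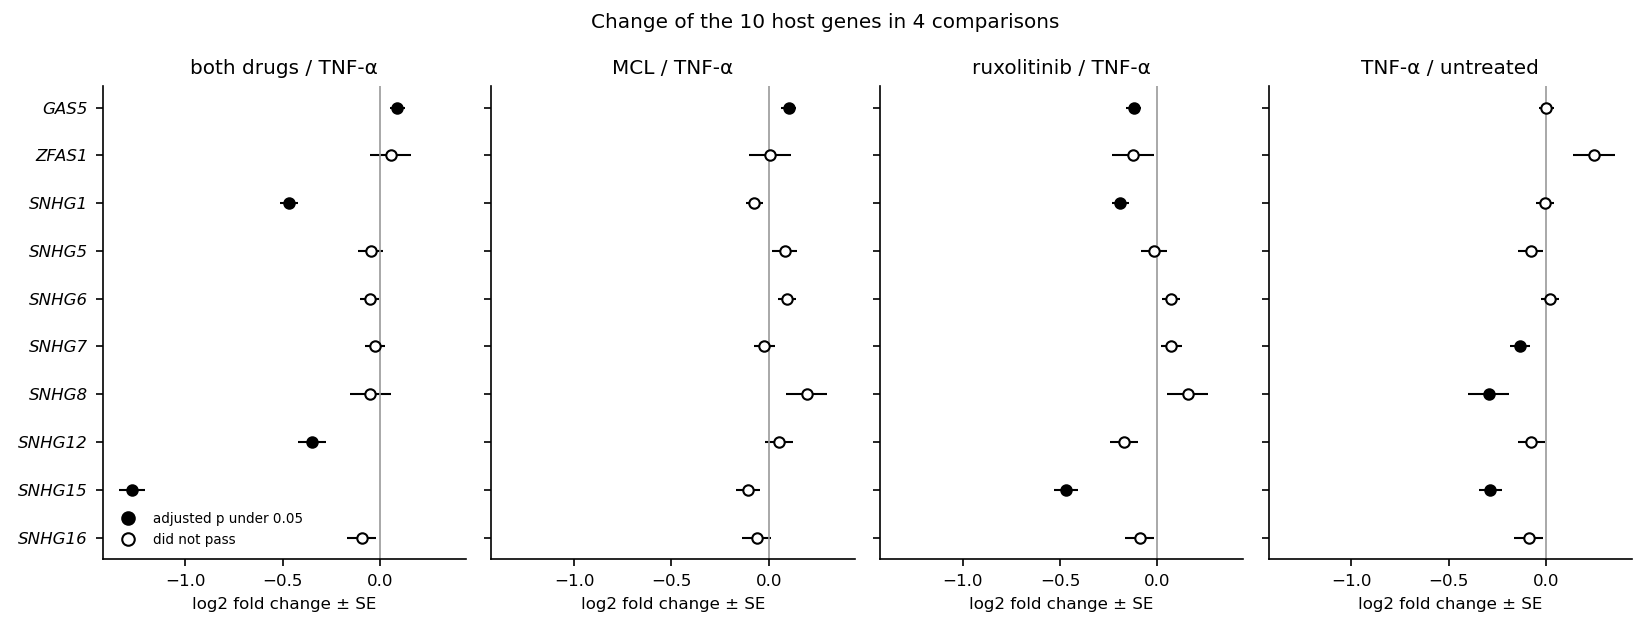
Log2 fold change of each host gene in 4 comparisons, with bars of 1 standard error, from edgeR's quasi-likelihood test over 15 libraries, with filled points where the Benjamini-Hochberg adjusted p was under 0.05. SNHG15 lies at -1.27 with both drugs and at -0.47 with ruxolitinib, and no other host lies below -0.47 in any panel.

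SNHG15, an H/ACA host whose RNA is known to turn over quickly, showed the largest differences. The gene is at chr7:44983023-44986961 on the minus strand (hg38), and the table lists SNORA9 inside it. It had 18.5, 17.7 and 20.3 CPM with both drugs, 42.7, 43.5 and 40.8 CPM with MCL, 32.2, 33.2 and 33.3 CPM with ruxolitinib, 47.8, 44.3 and 44.8 CPM with TNF-α, and 54.3, 57.4 and 55.1 CPM in untreated cells. No library of any group overlapped one of another group, and the order of the group means was both drugs, ruxolitinib, MCL, TNF-α and untreated cells, low to high. In bulk libraries such as these, fewer cells that express a gene and less of its RNA per cell cannot be told apart. With both drugs its mean level was 41.3% of that with TNF-α and 33.9% of that in untreated cells.

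The log2 fold change of SNHG15 was -1.27 ± 0.07 with both drugs against TNF-α (SE, adjusted p = 2.81e-25 in edgeR's quasi-likelihood test) and -0.47 ± 0.06 with ruxolitinib against TNF-α (adjusted p = 2.02e-08). With MCL against TNF-α it was -0.11 ± 0.06 and did not pass (adjusted p = 0.206), although all 3 MCL libraries were lower. TNF-α against untreated cells gave -0.29 ± 0.06 (adjusted p = 8.51e-05). Against MCL alone, both drugs gave -1.17 ± 0.07 (adjusted p = 8.86e-23), and against ruxolitinib alone -0.80 ± 0.07 (adjusted p = 1.3e-15). MCL against ruxolitinib gave 0.36 ± 0.06 (adjusted p = 4.86e-06). Each of the 6 calls held in all alternatives and with any single library left out. SNHG15 shares no exon base with a gene on the opposite strand.

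The other H/ACA hosts, SNHG8 (chr4:118278709-118279823, plus strand, with SNORA24 inside) and SNHG7 (chr9:136721366-136728184, minus strand, with SNORA17A and SNORA17B inside), were lower with TNF-α than in untreated cells. SNHG8 had 11.2, 11.8 and 12.5 CPM with TNF-α and 14.0, 14.999 and 14.6 CPM in untreated cells, with no overlap. Its log2 fold change was -0.30 ± 0.10 (SE, adjusted p = 0.0271, edgeR's quasi-likelihood test). This call was lost without untreated replicate 2 (-0.28, adjusted p = 0.0847), without untreated replicate 3 (-0.30, adjusted p = 0.0589), without TNF-α replicate 1 (-0.26, adjusted p = 0.107) and without TNF-α replicate 2 (-0.30, adjusted p = 0.0659). SNHG7 had 71.3, 66.7 and 78.8 CPM with TNF-α and 77.3, 83.8 and 76.4 CPM in untreated cells, and the groups overlapped. Its log2 fold change of -0.13 ± 0.05 passed narrowly (adjusted p = 0.0495) and was lost without untreated replicate 2 (-0.09, adjusted p = 0.265), without TNF-α replicate 1 (-0.13, adjusted p = 0.123) or TNF-α replicate 2 (-0.08, adjusted p = 0.343). Without untreated replicate 2, TNF-α replicate 1 or TNF-α replicate 2 the count of hosts called lower with TNF-α was 1 in place of 3.

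With the drugs, SNHG8 had 10.4, 12.7 and 11.1 CPM with both, 13.2, 12.9 and 14.6 CPM with MCL and 12.6, 13.3 and 13.7 CPM with ruxolitinib. The libraries with 1 drug lay above those with TNF-α alone, and those with both drugs overlapped them. None of these differences from TNF-α passed, the largest being 0.20 ± 0.11 on the log2 scale with MCL (adjusted p = 0.179). Without replicate 2 of the cells with both drugs, SNHG8 passed as lower against MCL (-0.33, adjusted p = 0.0214) and against ruxolitinib (-0.29, adjusted p = 0.0362). SNHG7 did not pass in any drug comparison. Its exons share 25.2% of their bases with FAM69B on the opposite strand, and reads there cannot be told apart because the sources used here do not give the strand setting.

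SNHG12, at chr1:28578538-28583132 on the minus strand, hosts both snoRNA classes and fell with both drugs. It had 23.3, 24.5 and 22.0 CPM with both drugs, 32.0, 30.5 and 29.97 CPM with MCL, 25.1, 26.8 and 27.1 CPM with ruxolitinib, 29.98, 30.3 and 28.8 CPM with TNF-α, and 32.5, 28.7 and 32.8 CPM in untreated cells. The libraries with both drugs lay below all others, and those with ruxolitinib lay below those of the MCL, TNF-α and untreated groups. The log2 fold change with both drugs was -0.35 ± 0.07 against TNF-α (SE, adjusted p = 4.05e-05, edgeR's quasi-likelihood test) and -0.41 ± 0.07 against MCL (adjusted p = 4.66e-06). Ruxolitinib against TNF-α gave -0.17 ± 0.07 and did not pass (adjusted p = 0.107).

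Against ruxolitinib alone, both drugs gave a log2 fold change of SNHG12 of -0.18 ± 0.07 (SE, adjusted p = 0.0372, edgeR's quasi-likelihood test). This call was lost with library totals (adjusted p = 0.153), with no filter on low counts (0.093), with DESeq2 (0.0735) and with only these groups in the fit (0.058). It was also lost without ruxolitinib replicate 2 (-0.16, adjusted p = 0.116) or 3 (-0.16, adjusted p = 0.107), and without replicate 1 (-0.18, adjusted p = 0.0692) or 3 (-0.14, adjusted p = 0.157) of both drugs. MCL against ruxolitinib gave 0.23 ± 0.07 (adjusted p = 0.0133), lost without MCL replicate 1 (0.20, adjusted p = 0.0761) or ruxolitinib replicate 1 (0.19, adjusted p = 0.0788).

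SNHG1, at chr11:62851988-62855914 on the minus strand, holds 7 snoRNA genes in the table, the most of the 10 hosts. It had 88.7, 92.6 and 102 CPM with both drugs, 125, 124 and 123 CPM with MCL, 112, 119 and 112 CPM with ruxolitinib, 124, 135 and 132 CPM with TNF-α, and 136, 135 and 121 CPM in untreated cells. The libraries with both drugs lay below all others, those with ruxolitinib lay below the MCL, TNF-α and untreated libraries, and the last 3 groups overlapped. The log2 fold change was -0.47 ± 0.05 with both drugs against TNF-α (SE, adjusted p = 1.87e-13, edgeR's quasi-likelihood test) and -0.19 ± 0.05 with ruxolitinib against TNF-α (adjusted p = 0.0013). With both drugs it was -0.39 ± 0.05 against MCL (adjusted p = 1.2e-10) and -0.28 ± 0.05 against ruxolitinib (adjusted p = 7.15e-07). MCL against TNF-α gave -0.07 ± 0.04 (adjusted p = 0.245), and TNF-α against untreated cells 0.00 ± 0.04 (adjusted p = 0.955).

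MCL against ruxolitinib gave a log2 fold change of SNHG1 of 0.12 ± 0.05 (SE, adjusted p = 0.0451, edgeR's quasi-likelihood test). The call was lost with DESeq2's size factors (adjusted p = 0.0501) and with DESeq2 itself (0.0986). It was lost without MCL replicate 1 (0.11, adjusted p = 0.128), 2 (0.12, adjusted p = 0.0931) or 3 (0.12, adjusted p = 0.0719) and without ruxolitinib replicate 1 (0.10, adjusted p = 0.157) or 3 (0.10, adjusted p = 0.15).

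GAS5, at chr1:173863900-173868882 on the minus strand, was the host with opposite calls under the single drugs. It had 187, 185 and 179 CPM with both drugs, 182, 186 and 189 CPM with MCL, 157, 155 and 164 CPM with ruxolitinib, 165, 179 and 174 CPM with TNF-α, and 164, 180.4 and 173 CPM in untreated cells. The MCL libraries lay above and the ruxolitinib libraries below those with TNF-α alone, while replicate 3 of both drugs overlapped them. The clearest differences were between drug groups, 0.22 ± 0.04 on the log2 scale for MCL against ruxolitinib (SE, adjusted p = 4.08e-06, edgeR's quasi-likelihood test) and 0.21 ± 0.04 for both drugs against ruxolitinib (adjusted p = 5.42e-06), and both held in all alternatives.

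Against TNF-α, the log2 fold change of GAS5 was 0.09 ± 0.04 with both drugs (adjusted p = 0.0476 in edgeR's quasi-likelihood test), 0.10 ± 0.04 with MCL (0.0398) and -0.12 ± 0.04 with ruxolitinib (0.0234), and each rested on single libraries. The call with both drugs did not hold without TNF-α replicate 1 (0.06, adjusted p = 0.251) or 3 (0.10, adjusted p = 0.0671) or without replicate 1 (0.08, adjusted p = 0.124) or 2 (0.09, adjusted p = 0.0865) of both drugs. The call with MCL did not hold without TNF-α replicate 1 (0.08, adjusted p = 0.218) or 3 (0.11, adjusted p = 0.0607) or MCL replicate 2 (0.11, adjusted p = 0.0646) or 3 (0.10, adjusted p = 0.107), and 0 hosts were called without TNF-α replicate 3, MCL replicate 2 or MCL replicate 3. The call with ruxolitinib did not hold without TNF-α replicate 2 (-0.09, adjusted p = 0.211) or 3 (-0.11, adjusted p = 0.097) or ruxolitinib replicate 1 (-0.11, adjusted p = 0.114) or 2 (-0.09, adjusted p = 0.198). It was also lost with DESeq2's size factors (adjusted p = 0.0501), library totals (0.0779), no filter (0.0995), DESeq2 (0.0603) and only the groups compared (0.0523).

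SNHG6, a C/D host with SNORD87 inside and the highest level per kb of the set, differed only between drug groups. It is at chr8:66921684-66926398 on the minus strand. It had 121, 120.4 and 131 CPM with both drugs, 135, 137 and 139 CPM with MCL, 135, 140.2 and 129 CPM with ruxolitinib, 137, 122 and 127 CPM with TNF-α, and 119, 138 and 123 CPM in untreated cells. The libraries with both drugs lay below those with MCL and overlapped all other groups. Both drugs gave a log2 fold change of -0.15 ± 0.05 against MCL (SE, adjusted p = 0.00979, edgeR's quasi-likelihood test), lost with library totals (adjusted p = 0.0594) and without replicate 1 (-0.13, adjusted p = 0.0589) or 2 (-0.13, adjusted p = 0.0602) of both drugs. Against ruxolitinib it was -0.12 ± 0.05 (adjusted p = 0.0276), lost with library totals (0.213), with DESeq2 (0.068), without ruxolitinib replicate 1 (-0.12, adjusted p = 0.0669) or 2 (-0.08, adjusted p = 0.201), and without replicate 1 (-0.10, adjusted p = 0.115) or 2 (-0.10, adjusted p = 0.12) of both drugs. MCL against TNF-α gave 0.09 ± 0.05 (adjusted p = 0.148), which passed with library totals (0.13, adjusted p = 0.031), with only the groups compared (0.11, adjusted p = 0.0343) and without TNF-α replicate 1 (0.14, adjusted p = 0.0358).

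The remaining C/D hosts passed in no comparison of all libraries. ZFAS1 (chr20:49278178-49295738, plus strand) had 18.6, 19.4 and 19.2 CPM with both drugs, 17.2, 21.7 and 16.5 CPM with MCL, 20.6, 14.8 and 15.1 CPM with ruxolitinib, 20.7, 16.8 and 17.6 CPM with TNF-α, and 15.6, 16.3 and 14.5 CPM in untreated cells. The libraries with both drugs, with MCL and with TNF-α lay above those of untreated cells, while those with ruxolitinib overlapped them. For TNF-α against untreated cells the log2 fold change was 0.25 ± 0.11 (SE, adjusted p = 0.0872, edgeR's quasi-likelihood test), which passed with only these groups in the fit (0.25, adjusted p = 0.0332). Without ruxolitinib replicate 1, the highest of its group, ZFAS1 passed as higher with both drugs (0.35, adjusted p = 0.00747) and with MCL (0.30, adjusted p = 0.0434), each against ruxolitinib.

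SNHG5 (chr6:85660950-85678748, minus strand) had 39.7, 40.7 and 48.9 CPM with both drugs, 45.6, 48.4 and 47.6 CPM with MCL, 43.8, 46.5 and 41.8 CPM with ruxolitinib, 43.8, 45.9 and 43.9 CPM with TNF-α, and 46.1, 50.1 and 44.8 CPM in untreated cells. Replicate 3 of both drugs stood apart from the other libraries of its group, and without it SNHG5 passed as lower against MCL (-0.23, adjusted p = 0.00458, edgeR's quasi-likelihood test), where all libraries gave -0.13 ± 0.06 (SE, adjusted p = 0.1). SNHG16 (chr17:76557766-76565348, plus strand) averaged 53.4 ± 2.69 CPM with both drugs, 54.6 ± 4.91 CPM with MCL, 53.5 ± 4.78 CPM with ruxolitinib, 57.0 ± 6.24 CPM with TNF-α and 60.6 ± 2.66 CPM in untreated cells (SD, n = 3 each), and its untreated libraries lay above those of each drug group and overlapped those with TNF-α.

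The non-additive effect asks whether the change with both drugs differs from the sum of the changes with each drug alone, on the log2 scale and against TNF-α. SNHG15, SNHG8, SNHG6 and SNHG1 lay below the sum, 4 of 10 hosts (40%) against 25.0% of all tested genes called, 12.2% above the sum and 12.8% below it. No host was called above the sum. For SNHG15 the single drugs summed to -0.58 and both drugs gave -1.27, a non-additive effect of -0.70 ± 0.09 (SE, adjusted p = 1.3e-08, edgeR's quasi-likelihood test) that held in all alternatives. For SNHG1 the sum was -0.26 and both drugs gave -0.47, a non-additive effect of -0.20 ± 0.06 (adjusted p = 0.0137). It did not hold without TNF-α replicate 1 (-0.18, adjusted p = 0.0574) or replicate 1 of both drugs (-0.17, adjusted p = 0.07).

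SNHG6 and SNHG8 were called for another arrangement, higher values under each single drug that both drugs together did not show, although none of these single changes had passed. For SNHG6 the sum was 0.16 and both drugs gave -0.05, a non-additive effect of -0.22 ± 0.07 (SE, adjusted p = 0.0132, edgeR's quasi-likelihood test) that did not hold without TNF-α replicate 2 (-0.19, adjusted p = 0.0504). For SNHG8 the sum was 0.35 and both drugs gave -0.05, a non-additive effect of -0.40 ± 0.15 (adjusted p = 0.0387). This last call was lost with library totals (adjusted p = 0.0506), with no filter (0.0596) and without TNF-α replicate 1 (-0.37, adjusted p = 0.0881) or 2 (-0.40, adjusted p = 0.0643), MCL replicate 3 (-0.35, adjusted p = 0.107), ruxolitinib replicate 2 (-0.41, adjusted p = 0.0576) or 3 (-0.38, adjusted p = 0.0722), and replicate 1 (-0.34, adjusted p = 0.109) or 3 (-0.39, adjusted p = 0.0692) of both drugs. Without TNF-α replicate 1, TNF-α replicate 2 or replicate 1 of both drugs, 2 hosts were called in place of 4. SNHG12 had a non-additive effect of -0.23 ± 0.10 that did not pass (adjusted p = 0.0898). The median non-additive effect was -0.16 over the 10 hosts and 0.01 over all tested genes.

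**Figure D3:**
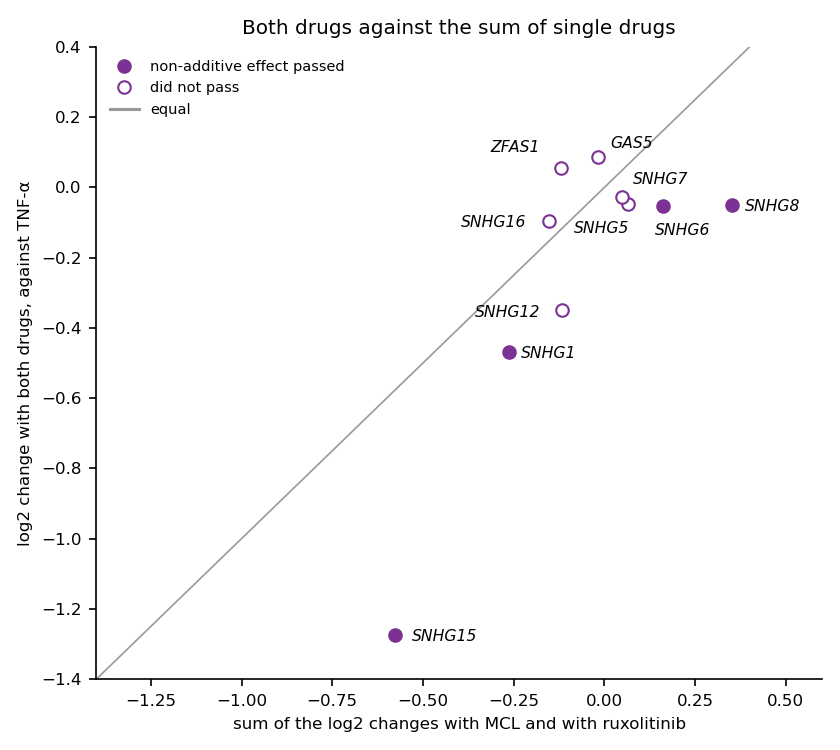
Log2 change of each host with both drugs against TNF-α (vertical) plotted on the sum of its log2 changes with MCL and with ruxolitinib (horizontal), with a grey line where they are equal and filled points where the non-additive effect had an adjusted p under 0.05. Of the 10 hosts, 7 lie below the line, SNHG15 farthest at -1.27 against a sum of -0.58; both axes share the TNF-α libraries.

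Several hosts lie head to head with another gene, among them SNHG1 and SLC3A2. SLC3A2, which encodes the heavy chain of an amino acid transporter, starts on the opposite strand. The 300 bases of RefSeq promoter of SNHG1 (GRCh38.p14, chr11:62855836-62856135, minus strand) span the whole gap and are shown because both genes read away from it; capitals mark the 187 bases between the genes as the table places them, chr11:62855915-62856101.
SNHG1 promoter: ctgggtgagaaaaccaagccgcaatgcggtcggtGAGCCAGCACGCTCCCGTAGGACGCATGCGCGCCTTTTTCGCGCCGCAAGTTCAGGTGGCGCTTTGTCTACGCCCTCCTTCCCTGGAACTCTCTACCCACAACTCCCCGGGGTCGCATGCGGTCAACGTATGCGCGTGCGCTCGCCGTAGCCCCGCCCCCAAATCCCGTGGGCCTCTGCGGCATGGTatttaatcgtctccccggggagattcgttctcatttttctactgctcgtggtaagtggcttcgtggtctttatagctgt
The 300 bases hold 30 CpG and are 60.0% G or C. SLC3A2 had 510.1 ± 13.7 CPM with both drugs, 346 ± 1.96 CPM with MCL, 217 ± 8.98 CPM with ruxolitinib, 235 ± 6.93 CPM with TNF-α and 239 ± 4.86 CPM in untreated cells (SD, n = 3 each). Against TNF-α its log2 fold change was 1.12 ± 0.03 with both drugs (SE, adjusted p = 6.18e-37, edgeR's quasi-likelihood test), 0.56 ± 0.03 with MCL (adjusted p = 7.07e-21) and -0.12 ± 0.04 with ruxolitinib (adjusted p = 0.0149). So with both drugs SLC3A2 rose and SNHG1 fell, and with ruxolitinib both fell.

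SNHG12 and its opposite-strand neighbour TRNAU1AP, a gene of selenocysteine tRNA handling, also moved apart. TRNAU1AP averaged 26.2 ± 0.480 CPM with both drugs, 21.5 ± 0.719 CPM with MCL, 22.7 ± 0.339 CPM with ruxolitinib, 17.9 ± 0.322 CPM with TNF-α and 15.5 ± 0.426 CPM in untreated cells (SD, n = 3 each). It rose by 0.54 ± 0.08 on the log2 scale with both drugs against TNF-α (SE, adjusted p = 2.59e-08, edgeR's quasi-likelihood test), where SNHG12 fell. ZBTB37, which overlaps GAS5 on the opposite strand, rose by 0.33 ± 0.07 with both drugs against TNF-α (adjusted p = 3.13e-05), where GAS5 rose by 0.09. Of the bases in exons, GAS5 shares 42 of 3631 and SNHG12 0.188% with opposite-strand genes. Of the tested genes within 1000 bases of a host, 3 with few counts were called with both drugs against TNF-α. GAS5-AS1 (-1.01 ± 0.41, adjusted p = 0.0315) and AL355987.5 beside SNHG7 (-2.78 ± 0.67, adjusted p = 0.00032) were lower and AC015802.4 beside SNHG16 (1.84 ± 0.64, adjusted p = 0.0113) was higher, each with at most 21 counts in a library.

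ZNFX1, which overlaps ZFAS1 on the opposite strand and encodes an antiviral RNA helicase, averaged 38.8 ± 0.292 CPM with both drugs, 45.5 ± 2.02 CPM with MCL, 32.8 ± 1.40 CPM with ruxolitinib, 52.3 ± 1.12 CPM with TNF-α and 35.1 ± 1.71 CPM in untreated cells (SD, n = 3 each). It rose with TNF-α against untreated cells (log2 fold change 0.57 ± 0.06, SE, adjusted p = 4.25e-12, edgeR's quasi-likelihood test) and fell with ruxolitinib against TNF-α (-0.67 ± 0.06, adjusted p = 7.93e-14). The exons of ZFAS1 share 26.1% of their bases with genes on the opposite strand, so a part of the reads counted for ZFAS1 and ZNFX1 cannot be told apart, and how many was not tested. The same holds for SNHG7 and FAM69B, which fell with both drugs against TNF-α (-0.34 ± 0.06, adjusted p = 1.85e-05) while SNHG7 did not pass (-0.03 ± 0.05, adjusted p = 0.697). SNHG6 shares 29.3% of its exon bases with MCMDC2, which had at most 18 counts in a library, and SNHG16 30.6% with AC015802.6, which had at most 3. SNHG5, SNHG8 and SNHG1 share none, like SNHG15.

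**Figure D4:**
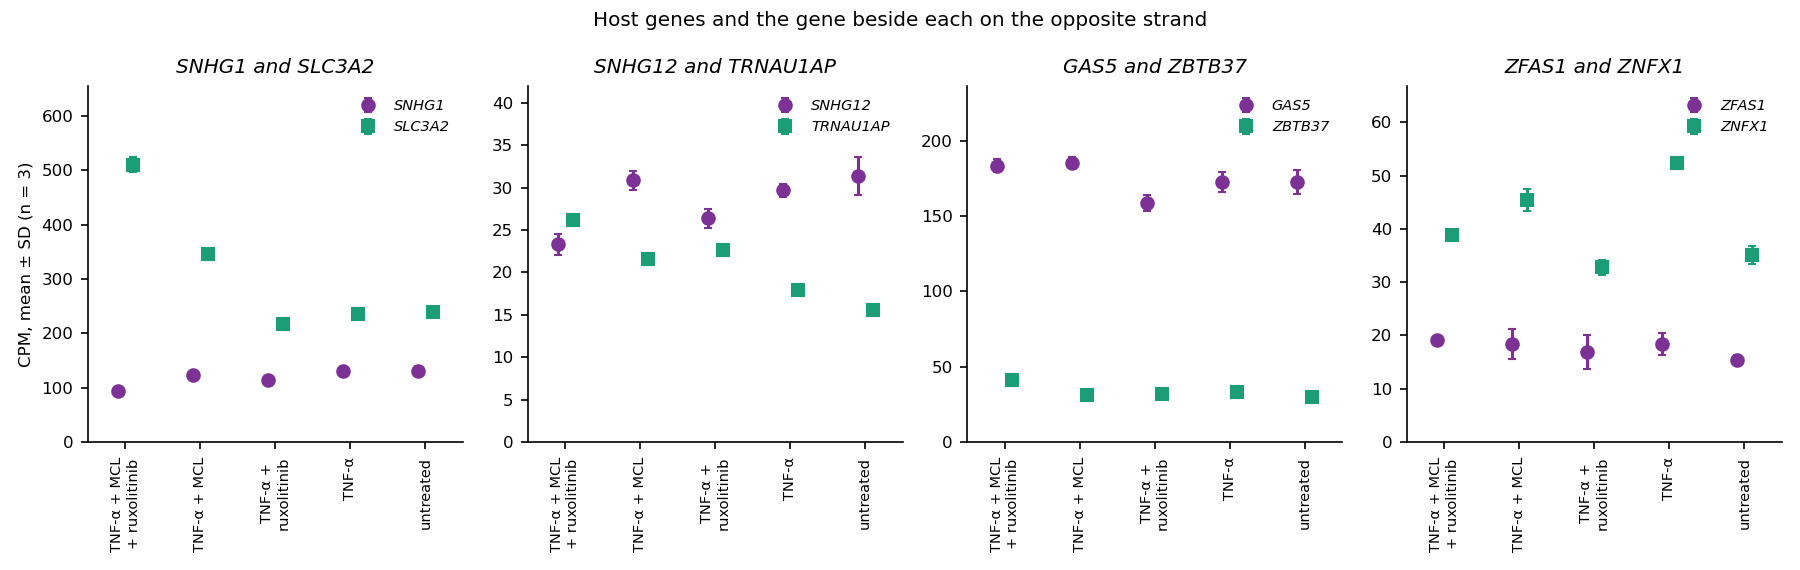
Mean level (CPM, linear axes from 0) of 4 hosts and of the gene next to or overlapping each on the opposite strand in the 5 groups, with bars of 1 SD (n = 3 libraries). SLC3A2 stands at 510.1 CPM with both drugs and 235 CPM with TNF-α while SNHG1 stands at 94.3 and 130.3 CPM, and TRNAU1AP stands at 26.2 CPM with both drugs and 17.9 CPM with TNF-α while SNHG12 stands at 23.3 and 29.7 CPM.

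The snoRNAs themselves were hardly counted in these libraries. The table lists 26 snoRNA genes inside the 10 hosts, of which 4 had any count and 2 passed the filter, SNORD12B and SNORD12C in ZFAS1. SNORD12B had 4 to 13 counts and SNORD12C 1 to 17 counts in a library, and neither passed in any comparison. The values of the hosts are therefore those of the longer RNA, and changes in the snoRNAs could not be read from these libraries.

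Across the 15 libraries, the levels of SNHG1, SNHG12 and SNHG15 ran closely together. Pearson's r of log2 CPM was 0.942 for SNHG1 with SNHG15, 0.897 for SNHG12 with SNHG15 and 0.821 for SNHG1 with SNHG12, given as a description over libraries that share 5 groups and their scaling. Over all 45 pairs of hosts the median r was 0.196, and 14 pairs were negative, the lowest ZFAS1 with SNHG8 at -0.607. The mean standardised profile of the 10 hosts had an r of 0.859 with SNHG15 and 0.829 with SNHG1, but 0.0317 with GAS5 and -0.133 with ZFAS1, so no single profile describes the set. Each host is itself part of that mean, which raises its r. The 5 other genes most like that mean profile were FARSA (r = 0.951), CARD19 (0.947), CNDP2 (0.939), ACTN4 (0.938) and KARS (0.937).

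Other host genes were described from lists of the same biology. Of 16 further non-coding hosts tested, 9 fell and 1 rose with both drugs against TNF-α, with a median log2 fold change of -0.22 against -0.03 over all genes, where 29.3% of all genes were called lower. The number called lower was 9 under each scaling, and 2 were called higher under library totals. SNHG17 (-0.65 ± 0.07, SE, adjusted p = 2.32e-11, edgeR's quasi-likelihood test), SNHG3 (-0.40 ± 0.04, adjusted p = 5.05e-12), SNHG4 (-0.33 ± 0.05, adjusted p = 1.28e-07) and SNHG26 (-0.83 ± 0.17, adjusted p = 2.12e-05) had the smallest p, and SNHG11 was the one that rose. With ruxolitinib against TNF-α 5 of the 16 fell (4 under the other scalings) and none rose, where 10.6% of all genes were called lower. With MCL 1 rose (SNHG4, 0.21 ± 0.05, adjusted p = 0.00105) and 1 fell (SNHG14, -0.16 ± 0.05, adjusted p = 0.0101), or 2 rose and 0 fell with library totals. Of all genes 10.9% were called higher and 15.1% lower with MCL. With TNF-α against untreated cells 2 fell (3 under the other scalings), where 12.5% of all genes were called lower. The non-additive effect was negative and passed for SNHG17, SNHG4, SNHG3 and DANCR, and no further host of the 16 passed in either direction. Of all genes 12.8% were called below the sum and 12.2% above it. Of 38 protein-coding hosts 15 fell and 6 rose with both drugs against TNF-α, where 29.3% of all genes were called lower and 25.5% higher. Some of these 38 also belong to the lists of core proteins and of ribosomal protein genes given below, so these lists are not independent. NOP56 (-0.74 ± 0.03, adjusted p = 2.16e-28) and WDR43 (-0.54 ± 0.04, adjusted p = 7.17e-18) were among the falls. The chaperone HSPA8 (0.89 ± 0.03, adjusted p = 1.56e-35) and the translation factor EIF5 (0.64 ± 0.03, adjusted p = 5.77e-26) were among the rises. The median of the 38 hosts, -0.06, became 0.01 with library totals, with 11 lower and 9 higher.

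All 8 core proteins of the snoRNA particles fell with both drugs against TNF-α, or 5 of 8 with library totals and 7 of 8 with DESeq2's size factors. Of all genes 29.3% were called lower in that comparison. NOP56 and NOP58 (-0.54 ± 0.04, SE, adjusted p = 1.16e-19, edgeR's quasi-likelihood test), which bind C/D snoRNAs, and DKC1 (-0.42 ± 0.04, adjusted p = 1.5e-15), the pseudouridine synthase of the H/ACA class, had the smallest p. With ruxolitinib 4 of the 8 fell, where 10.6% of all genes were called lower. With MCL 1 fell, where 15.1% of all genes were called lower. With TNF-α against untreated cells 5 fell, where 12.5% of all genes were called lower. None rose in these comparisons except 1 with MCL under library totals.

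Factors of nonsense-mediated decay mostly rose with both drugs against TNF-α, 9 of 11 higher and 1 lower, with a median log2 fold change of 0.30. Of all genes 25.5% were called higher and 29.3% lower in that comparison. SMG9 (0.66 ± 0.05, SE, adjusted p = 5.9e-18, edgeR's quasi-likelihood test), SMG5 (0.37 ± 0.04, adjusted p = 6.08e-14), UPF1 (0.30 ± 0.03, adjusted p = 3.49e-11) and UPF2 (0.32 ± 0.04, adjusted p = 2.93e-09) had the smallest p. The exon junction complex is left on RNA by splicing and takes part in that decay. Of its 5 genes, EIF4A3 (-0.39 ± 0.04, adjusted p = 4.77e-13), MAGOHB (-0.50 ± 0.08, adjusted p = 6.93e-08) and RBM8A (-0.10 ± 0.04, adjusted p = 0.0449) fell and CASC3 (0.22 ± 0.04, adjusted p = 2.7e-06) rose. Under each other scaling 2 were called lower. With MCL 3 of the 11 decay factors rose and 1 fell, or 5 and 0 with library totals, where 10.9% of all genes were called higher and 15.1% lower. With ruxolitinib 1 rose and 2 fell, or 2 and 1 with library totals, where 5.15% of all genes were called higher and 10.6% lower. With so few genes, these counts under the single drugs are not read as differing from genes at large.

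Genes that regulate the translation of TOP RNAs, some that restrain it and some that promote it, were tested beside these. Of 11, 7 rose and 2 fell with both drugs against TNF-α, where 25.5% of all genes were called higher and 29.3% lower. The smallest p belonged to SESN2 (2.03 ± 0.06, SE, adjusted p = 3e-38, edgeR's quasi-likelihood test) and DDIT4 (2.82 ± 0.09, adjusted p = 4.31e-37), inhibitors of the growth kinase mTORC1. Both genes also belong to the list of the integrated stress response, of whose 9 tested genes all 9 rose, with a median log2 fold change of 2.03 and the glutathione-degrading enzyme CHAC1 highest (3.25 ± 0.07, adjusted p = 1.1e-46). With MCL 9 of these 9 rose too, with a median of 0.68, where 10.9% of all genes were called higher. With ruxolitinib 1 rose and 2 fell, where 5.15% of all genes were called higher and 10.6% lower. Of 79 cytosolic ribosomal protein genes, the main class with TOP starts, 24 were called lower and 1 higher with both drugs against TNF-α. The median log2 fold change was -0.07, and with library totals 10 were lower and 6 higher with a median of 0.00. RPL36A (-0.79 ± 0.11, adjusted p = 4.05e-09) and RPS10 (-1.41 ± 0.26, adjusted p = 4.46e-06) were among those that fell. Against MCL, both drugs gave 42 lower and 0 higher (26 and 1 with library totals), where 22.0% of all genes were called lower. Against ruxolitinib they gave 45 lower and 0 higher (23 and 0), where 26.8% of all genes were called lower. For the non-additive effect 37 lay below the sum and 0 above it (34 and 0), where 12.8% of all genes were called below it. Ribosomal protein genes have near-identical copies elsewhere in the genome, and the sources used here do not say how reads with several matches were counted.

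**Figure D5:**
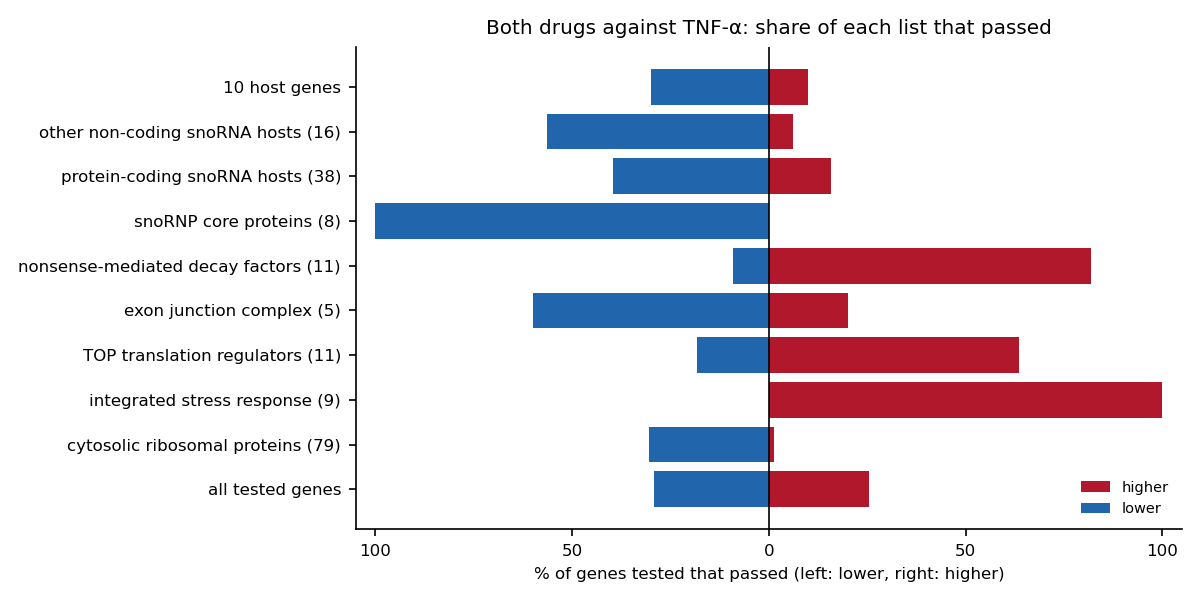
Share of the tested genes of each list that passed as lower (left) or higher (right) with both drugs against TNF-α, in percent, with the number tested in brackets and all tested genes in the bottom row. Some genes belong to several lists. Of the 10 hosts 30% were lower and 10% higher, against 29.3% and 25.5% of all tested genes, while all 8 snoRNA particle proteins were lower and all 9 stress response genes higher.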

How the data were processed

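The authors deposited 1 table of whole-number read counts for 58735 genes in 15 RNA-seq libraries; HISAT2 2.0.5, featureCounts 1.5.0-p3 and DESeq2 1.16.1 are named in the submitters' processing notes, with the builds hg38 and mm10 and no role or order. The strand setting and the counting of reads with several matches are not stated there. Gene positions in the table were the same as in GENCODE 29 for 58735 of 58735 genes. The untreated group is matched to the columns headed Control, since no other group lacks an agent.

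Counts were scaled by TMM, and filterByExpr (edgeR, minimum count 10) removed 42589 genes. One model of group means over all 15 libraries (10 residual degrees of freedom) was tested with edgeR 4.0.16 in R 4.3.3 by its robust quasi-likelihood test, 2-sided, for 7 pairs of groups and the non-additive effect of both drugs. All adjusted p-values are Benjamini-Hochberg values over the 16146 genes tested, with a threshold of 0.05, and standard errors come from dividing log2 fold changes by the root of F. The biological coefficient of variation was 0.0404, and library totals of 15476399 to 18035604 limit the precision of low counts. No 2 libraries of a group agreed within sampling noise. In data simulated for both drugs against TNF-α, the test found 88% of genes changed 2-fold and 58% of those changed 1.25-fold. It made 6 false calls among the unchanged genes. Each simulated gene had the same dispersion and few genes were changed, while 54.8% of all tested genes were called in the real comparison. These shares therefore do not give the error rates of the comparisons above.

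The members and lists were chosen with earlier results of these data known. From each list the 4 genes with the smallest p in a comparison could be named, and others named in the text were chosen after their values were seen. Levels per kb use the exon length in the table. Promoter sequences come from RefSeq (GRCh38.p14). Alternatives were DESeq2's size factors, library totals, no filter, DESeq2 1.42.0, only the groups compared, a replicate block and leaving out each library.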

Additional observations from a re-analysis of the deposited data

Results flagged for a closer look

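For 4 hosts the effect of adding 1 drug differed with the presence of the other, by the test of the non-additive effect in edgeR's quasi-likelihood test (Benjamini-Hochberg adjusted over all tested genes), a class that held 25.0% of all tested genes. SNHG15 had a log2 difference of -0.80 for both drugs against ruxolitinib and -0.11 for MCL against TNF-α, a difference between them of -0.70 ± 0.09 (SE). SNHG1 had values of -0.28 and -0.07 in these comparisons, a difference of -0.20 ± 0.06. SNHG6 had -0.12 and 0.09, a difference of -0.22 ± 0.07. SNHG8 had -0.21 and 0.20, a difference of -0.40 ± 0.15. The value for MCL against TNF-α did not pass the test for any of the 4, and that for both drugs against ruxolitinib did not pass for SNHG8.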

How the results depend on the processing

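Of the 28 calls of hosts, 15 held in every alternative, 13 were lost in at least one and none reversed, and 67 uncalled values changed sign without passing in either fit. The cause of the losses was not tested. With library totals, 2 hosts were called with MCL against TNF-α, both higher (2), and 3 with both drugs against ruxolitinib, 2 of them lower. DESeq2 gave 3 for the last comparison, 2 of them lower. With only the groups compared in the fit, 1 host was called higher with TNF-α against untreated cells, and 2 were called with MCL against TNF-α, both higher (2). DESeq2's size factors lost the calls of GAS5 with ruxolitinib against TNF-α and of SNHG1 with MCL against ruxolitinib. Smaller changes of count in these alternatives are not all listed here.

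Leaving out 1 library at a time gave 1 to 3 hosts called, all lower (1 to 3), for TNF-α against untreated cells, 0 to 1, all higher (0 to 1), for MCL against TNF-α, and 0 to 1 called higher for both drugs against TNF-α. It gave 2 to 4, all lower (2 to 4), for the non-additive effect, 2 to 4, all higher (2 to 4), for MCL against ruxolitinib, and 3 to 5 for both drugs against ruxolitinib, 1 to 2 higher and 2 to 4 lower. For ruxolitinib against TNF-α 2 to 3 were called, all lower, and for both drugs against MCL 3 to 5, all lower. Both drugs against TNF-α gave 3 to 4 calls in all.

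The replicate numbers did not pair the libraries: the deviations of same-numbered libraries had a correlation over 0.1 in 0 of 30 pairs, and 7 of 15 libraries were closest to their own number. With the replicate block, 4 hosts were called with both drugs against TNF-α, 3 with ruxolitinib, 1 with MCL, 3 with TNF-α against untreated cells and 4 for the non-additive effect, as without it, and it changed no count of hosts called in the other comparisons. With 3 libraries a group, the calls of GAS5 against TNF-α were each lost when certain single libraries were left out. Its calls for MCL and for both drugs against ruxolitinib held in all alternatives. SNHG8 and ZFAS1 have the fewest counts, and the part of low counts in lost calls was not tested.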

Other observations

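The genes whose log2 CPM ran closest to SNHG15 over the 15 libraries were looked up after its values had been seen, and are given as a description with no p for the likeness, since the libraries share 5 groups. They were MYC (Pearson's r = 0.989), RRS1 (0.987), NR1D1 (0.986), NOP58 (0.986) and NOP56 (0.985). MYC is a transcription factor of growth genes, RRS1 acts in the assembly of the large ribosomal subunit, NR1D1 is a repressor of the circadian clock, and NOP56 and NOP58 are core proteins of C/D snoRNA particles.

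MYC had a log2 fold change of -1.30 ± 0.04 with both drugs against TNF-α (SE, adjusted p = 9.16e-39, edgeR's quasi-likelihood test), where SNHG15 had -1.27. With ruxolitinib against TNF-α it had -0.53 and SNHG15 -0.47. With MCL against TNF-α MYC had -0.06 and did not pass (adjusted p = 0.228), and SNHG15 had -0.11. Its non-additive effect was -0.71, beside -0.70 for SNHG15.

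The few snoRNA genes with counts besides the 2 tested were SNORD99 in SNHG12, with 64 counts over all 15 libraries, and SNORD1B in SNHG16, with 39.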
